A study of Homo sapiens with 6 samples.

Results

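The IGF binding proteins IGFBP2, IGFBP3, IGFBP4, IGFBP5, IGFBP6 and IGFBP7, the receptors IGF1R and IGF2R and the receptor substrates IRS1 and IRS2 were followed by RNA-seq in cells depleted of OFD1, a protein of centrioles and centriolar satellites. These 10 genes were taken by symbol from a table of 67130 genes, and 9 of them, all but IGFBP2, reached the mean of 1 FPKM that was required for a test (12025 genes did). IGFBP5 rose 4.36-fold on OFD1 depletion, and no other member passed the test. The most abundant members, IGFBP7 and IGFBP3, together made up 96% to 97.4% of the summed IGFBP signal per library.

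The cells were hTERT-RPE1-TOShOFD1, a human retinal pigment epithelial line immortalized with telomerase that carries a lentiviral Tet-On short hairpin RNA against OFD1. The control group was 3 samples without doxycycline, also labelled 72 h, whose genotype is given as WT. The OFD1-depleted group was 3 samples given 200 ng/mL doxycycline for 72 h. The names under which the values were deposited begin with WT in both groups. All 6 samples carry the hairpin, and none received doxycycline without it, so the effects of doxycycline and of OFD1 loss cannot be told apart. The study calls the samples biological replicates and says of its assays in general that they were repeated independently, but the labels do not tie these samples to separate cultures, so the p-values measure the spread between these samples, which may be technical. The labels give the tissue as retina and also describe removal of retinas, which does not match a cell line.

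IGF-I and IGF-II are growth factors that act through IGF1R, a receptor tyrosine kinase. IGF binding proteins are secreted, hold the IGFs outside the cell and can either block or prolong their action, and several of them also bind the cell surface or the matrix. Activated IGF1R phosphorylates IRS1 and IRS2, docking proteins that pass the signal to PI3K, AKT and mTOR and to RAS and ERK, while IGF2R takes up IGF-II for breakdown and sorts lysosomal enzymes that carry mannose 6-phosphate.

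Values were FPKM, fragments scaled to transcript length and library depth. The table gives no read counts, and low values of single-exon genes put the depth at about 37800000 to 44500000 fragments per library, a rough figure because only 21.7% to 24.1% of those values fell on whole multiples of a fixed step. OFD1 itself went from 3.47 ± 0.144 FPKM in control to 0.996 ± 0.375 FPKM in OFD1-depleted cells (SD, n = 3 each), with all values of the groups apart. The protein-coding genes of mitochondrial DNA took 6.65% to 10.97% of all FPKM in control and 12.7% to 15.99% in OFD1-depleted libraries, and FPKM added up over the whole table came to 408302 to 414547 in control and 433262 to 493510 in OFD1-depleted libraries. Both measures were apart between the groups, and their part in the results on the members was not tested beyond the scaling alternatives. Marker genes bore out the label of the cells only in part. MITF (5.06 to 7.75 FPKM) and OTX2 (1.56 to 2.10 FPKM) were the tested retinal pigment epithelium genes, and 6 of the 10 genes of that list stayed under 1 FPKM in every library, TTR at 0. In a list of 6 genes for simple epithelia the keratins KRT8 and KRT18 stood above 100 FPKM, CDH1 stayed at or under 0.0492 FPKM and EPCAM was listed at 0. The cadherin on that list with a clear level was CDH2, at 69.91 to 79.12 FPKM in control and, lower, 45.35 to 58.97 FPKM in OFD1-depleted cells. Of 6 photoreceptor and neural retina genes 4 were listed at 0 in every library, among them SAG, CRX and RCVRN, and all 6 stayed under 1 FPKM. All 4 endothelial genes stayed under 1 FPKM as well, CDH5 alone being listed at 0. Of 4 leukocyte genes 3 stayed under 1 FPKM, CD3E alone being listed at 0. CD68, a lysosomal protein of macrophages and the only tested gene of 4 leukocyte markers, had 31.4 to 40.7 FPKM. Of 8 fibroblast and mesenchyme genes 6 were tested, COL1A1 being higher and THY1 lower in OFD1-depleted cells. The summed level of the 8 was 5592 to 6622 FPKM in control and 5134 to 5743 FPKM in OFD1-depleted cells. Most of this sum came from VIM (3588 to 4458 FPKM) and FN1 (1199 to 2099 FPKM), while COL1A2 and COL3A1 stayed under 1 FPKM in every library. The part of these genes in the results on the members was not tested.

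OFD1-depleted replicate 2 stood apart from the other libraries by transcript length. Relative to its group's mean, its genes of 8000 bases or more had a median of -0.32 on the log2 scale and its genes under 1000 bases a median of 0.26, where the other OFD1-depleted replicates had 0.21 and 0.11 for the long genes and -0.10 and -0.16 for the short ones. Controls stayed within 0.10 of 0 in both classes. Members whose difference rests on this library are given with and without it.

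The 250 bases before the RefSeq start are printed for IGFBP5, IGFBP3 and IGFBP4, because these were the members whose control and OFD1-depleted values did not overlap. They were chosen after those values were seen. Sequences are 5′ to 3′ on the strand of the gene, from RefSeq on GRCh38.p14, with capitals for matches to 6 motifs searched on both strands. Of 35116 RefSeq windows of this kind, 10.7% held TATAAA as the core promoter box, 42.6% held GGGCGG as the Sp1 box and 6.34% held CACGTG as the E-box. A further 2.98% held TGTTTAC for forkhead factors, 11.9% held GGAATG for TEAD factors and 4.2% held TGACTCA for AP-1, and a window could hold several.
IGFBP5, chr2:216695550-216695799, minus strand: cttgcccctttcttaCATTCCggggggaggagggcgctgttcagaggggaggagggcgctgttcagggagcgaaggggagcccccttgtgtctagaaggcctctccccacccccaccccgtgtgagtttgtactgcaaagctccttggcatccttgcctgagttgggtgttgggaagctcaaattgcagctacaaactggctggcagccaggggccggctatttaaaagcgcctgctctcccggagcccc
IGFBP3, chr7:45921273-45921522, minus strand: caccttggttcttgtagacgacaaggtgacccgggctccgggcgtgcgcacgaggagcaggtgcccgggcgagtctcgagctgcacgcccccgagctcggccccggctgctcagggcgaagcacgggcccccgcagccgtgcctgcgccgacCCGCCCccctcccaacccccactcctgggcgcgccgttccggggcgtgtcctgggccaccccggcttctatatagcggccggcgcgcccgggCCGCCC
IGFBP4, chr17:40443200-40443449, plus strand: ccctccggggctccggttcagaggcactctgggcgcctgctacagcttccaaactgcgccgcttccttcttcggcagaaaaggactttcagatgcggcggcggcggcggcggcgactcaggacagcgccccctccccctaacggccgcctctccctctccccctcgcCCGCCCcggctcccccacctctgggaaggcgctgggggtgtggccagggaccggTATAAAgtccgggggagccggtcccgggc

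The window of IGFBP5 held 1 of these motifs, GGAATG on the opposite strand, which begins 235 bases before the start. The IGFBP3 window held GGGCGG 2 times on the opposite strand, the nearer 6 bases before the start, and lies inside the longer gene model of the deposited table. The IGFBP4 window held TATAAA 29 bases and GGGCGG, on the opposite strand, 83 bases before the start. Bases G and C made up 61.2%, 76.0% and 71.6% of the IGFBP5, IGFBP3 and IGFBP4 windows. A match is an exact run of letters and not a measured site, and variants of a motif were not searched. Windows were found for 9 of the 10 members, the exception being IGFBP7.

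Members spanned a wide range of levels, which FPKM allows to be compared per length. In control cells the order was IGFBP7, IGFBP3, IGFBP6, IGF2R, IGFBP5, IGFBP4, IGF1R, IRS2, IRS1 and IGFBP2. Neighbours in that order did not overlap across the control libraries, except IGFBP5 and IGFBP4. By mean over the 6 libraries, IGFBP7 was the 20th and IGFBP3 the 39th of the 28501 genes detected, against ranks of 7158 for IGF1R, 8161 for IRS2 and 9053 for IRS1. In OFD1-depleted cells IGFBP5 stood above IGF2R and far above IGFBP4, and the ranges of IGFBP4 and IGF1R, and of IRS2 and IRS1, overlapped.

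**Figure D1:**
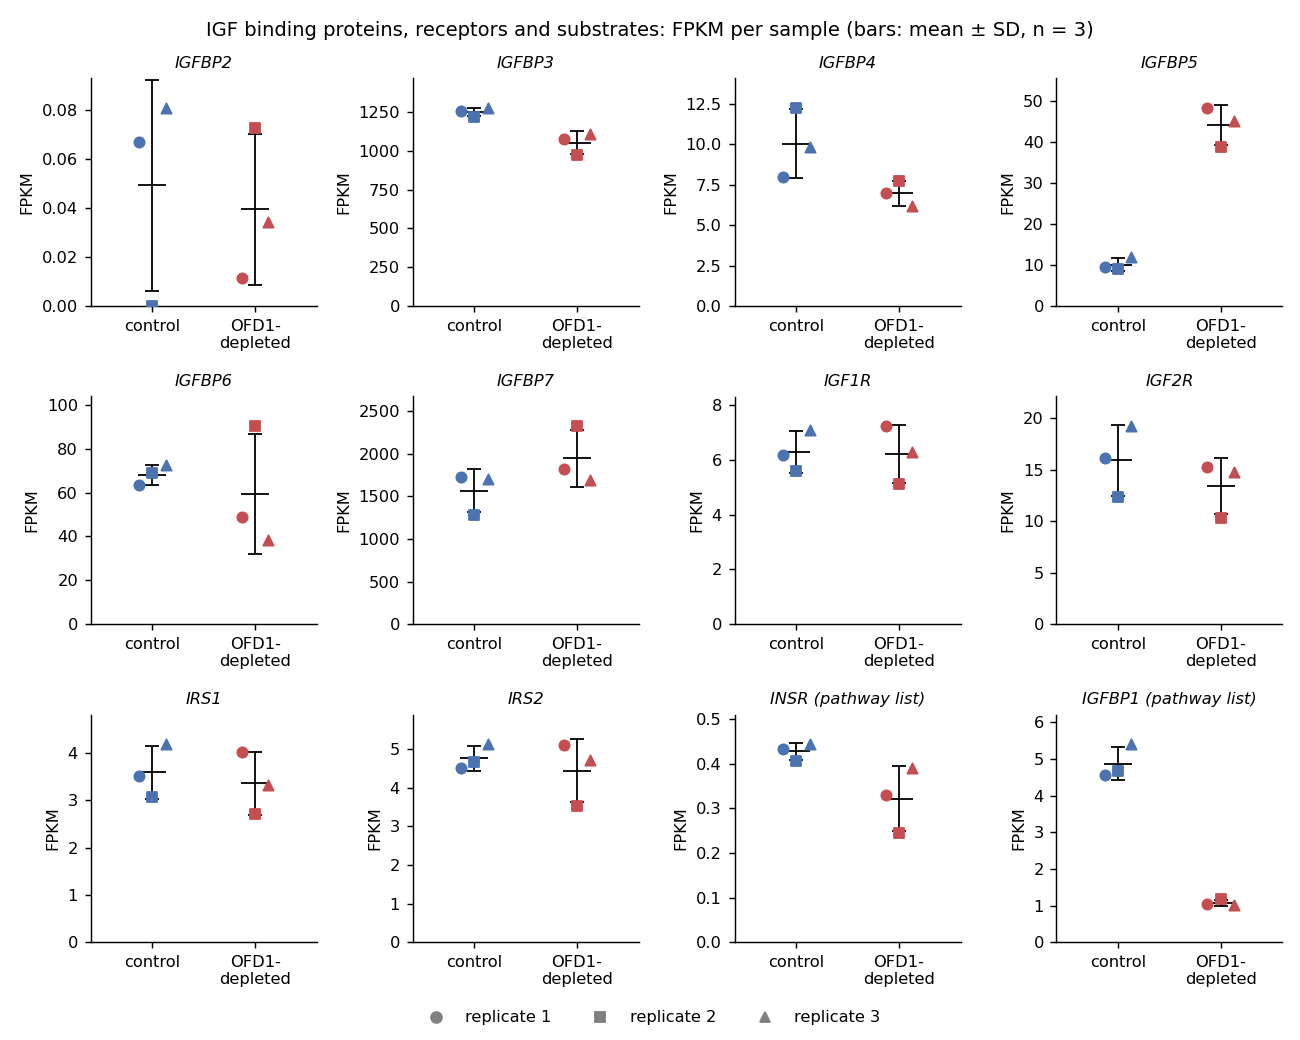
FPKM of each member, and of INSR and IGFBP1, in 3 control (blue) and 3 OFD1-depleted (red) libraries; symbols mark the replicate, and bars show the mean ± SD, with a separate axis from 0 for each gene. IGFBP5 moves from 8.94 to 12.0 FPKM up to 38.8 to 48.4 FPKM, IGFBP1 moves down from above 4.5 to below 1.2 FPKM, and the long genes IGF1R, IGF2R, IRS1 and IRS2 are lowest among OFD1-depleted libraries in replicate 2.

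IGFBP5 binds both IGFs and components of the extracellular matrix. It lies on chromosome 2 (216672105 to 216695549, minus strand, GRCh38). Its level was 9.45, 8.94 and 12.0 FPKM in control replicates 1, 2 and 3, and 48.4, 38.8 and 45.3 FPKM in OFD1-depleted replicates 1, 2 and 3. Every OFD1-depleted library was above every control library, with the lowest OFD1-depleted value over 3 times the highest control value. The means were 10.1 ± 1.64 and 44.1 ± 4.88 FPKM (SD, n = 3 each). On the scale of log2(FPKM + 0.1), used in all tests here, the change was 2.12 (standard error 0.15, 95% interval 1.79 to 2.45, adjusted p = 1.35e-05 by limma with Benjamini-Hochberg adjustment over the 12025 genes tested). The exact two-sided permutation test of the FPKM gave p = 0.1, the smallest that 3 samples against 3 can give. IGFBP5 was the 7th largest of 610 rises. Over 17 alternative settings its change stayed between 1.97 and 2.25. In bulk RNA, a change in the number of cells that make a transcript and a change in transcript per cell cannot be told apart.

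Of the 9 members tested, 1 (11.1%) passed an adjusted p of 0.05 against 17.0% of all genes tested, of which 5.07% were higher and 11.9% lower in OFD1-depleted cells. At an unadjusted p under 0.05 there were 2 members (IGFBP5 and IGFBP4), or 22.2%, against 30.6% of all genes tested. The numbers behind these shares were 610 higher and 1429 lower genes. They became 268 and 1988 when libraries were scaled to the same total (TPM), 853 and 1298 with median-of-ratios scaling and 1093 and 1311 with quantile normalization. Scaling to TPM shifted the median log2 fold change of all tested genes by -0.145, and the other scalings shifted it by less than 0.1. The groups did not overlap in 3 members, IGFBP3, IGFBP4 and IGFBP5, where 36.1% of all genes tested did not overlap. The log2 fold change was below 0 in 7 of the 9 members and in 6460 of the 12025 genes, with a median of -0.11 for the members and -0.03 for all genes. By transcript length, the median of all genes went from 0.128 under 1000 bases to -0.176 at 8000 bases or more.

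**Figure D2:**
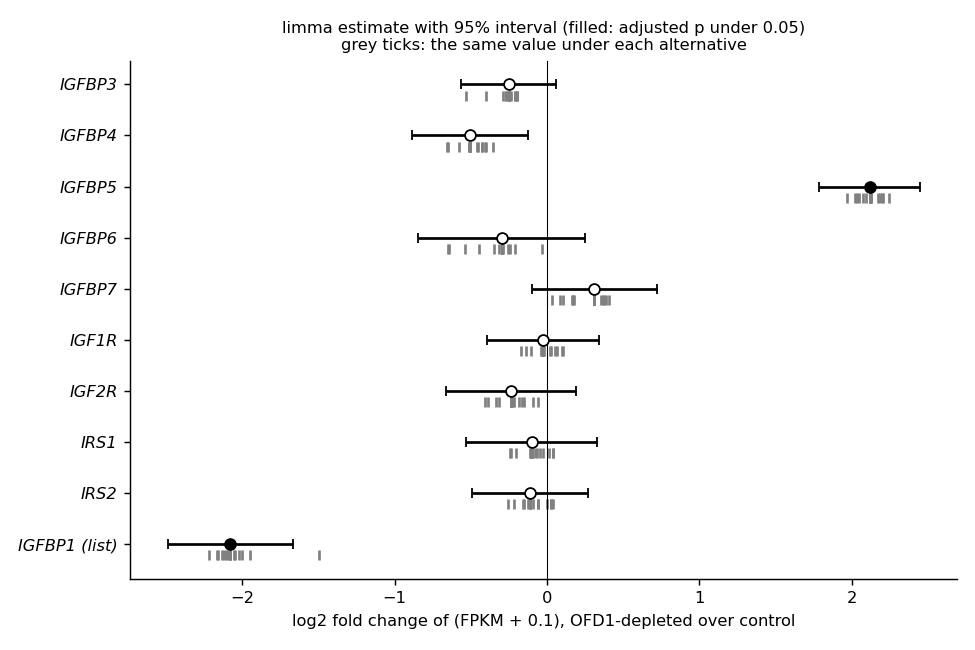
Log2 fold change of FPKM + 0.1 (horizontal axis, OFD1-depleted over control) with its 95% interval for the 9 tested members and IGFBP1; filled points have an adjusted p under 0.05, and grey ticks show the value under each alternative setting. IGFBP5 (2.12) and IGFBP1 (-2.08) lie far from 0 under every alternative, while the ticks of IGF1R, IRS1 and IRS2 fall on both sides of 0.

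IGFBP3 is the main carrier of IGFs in blood. Its gene lies on chromosome 7 (45912245 to 45921874, minus strand). The control replicates had 1255, 1220 and 1275 FPKM and those depleted of OFD1 had 1076, 970.3 and 1110 FPKM. All control libraries were above all OFD1-depleted libraries, by a narrow margin. The means were 1250 ± 27.9 and 1052 ± 72.7 FPKM (SD, n = 3 each), and the log2 difference was -0.25 (standard error 0.14, 95% interval -0.56 to 0.06, adjusted p = 0.263 by limma with Benjamini-Hochberg adjustment). This did not pass the test, although quantile normalization took the difference to -0.53 with an adjusted p of 0.0398 (limma) and TPM scaling to -0.40 with an adjusted p of 0.0648 (limma).

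IGFBP4 inhibits IGF action and is cleaved by the protease PAPP-A. It lies on chromosome 17 (40443450 to 40457725, plus strand). The control replicates had 8.01, 12.3 and 9.87 FPKM, and the OFD1-depleted replicates 7.002, 7.71 and 6.21 FPKM. The groups did not overlap, but control replicate 1 and OFD1-depleted replicate 2 differed by only 0.3 FPKM. The means of 10.0 ± 2.12 and 6.97 ± 0.754 FPKM (SD, n = 3 each) gave a log2 difference of -0.505 (standard error 0.17, 95% interval -0.88 to -0.13, adjusted p = 0.0681 by limma with Benjamini-Hochberg adjustment). The call turned on the setting, since the adjusted p from limma was 0.043 without OFD1-depleted replicate 2 (-0.58), 0.0467 without control replicate 1 (-0.66) and 0.0227 after scaling to TPM (-0.65). Relative to the median of all genes, the difference was -0.47 both with and without TPM scaling.

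IGFBP6 binds IGF-II in preference to IGF-I. Its gene (chromosome 12, 53097436 to 53102345, plus strand) had 63.3, 68.8 and 72.4 FPKM in control and 49.0, 90.2 and 38.3 FPKM in OFD1-depleted cells. Replicates 1 and 3 of the OFD1-depleted group lay below all controls and replicate 2 above all of them. The means were 68.1 ± 4.60 and 59.2 ± 27.4 FPKM (SD, n = 3 each), with a log2 difference of -0.30 (standard error 0.25, 95% interval -0.85 to 0.25, adjusted p = 0.463 by limma with Benjamini-Hochberg adjustment). Without OFD1-depleted replicate 2 the difference was -0.65 (adjusted p = 0.00788, limma). The canonical transcript of IGFBP6 has 947 bases, and genes under 1000 bases were high in that library as a class, with a median deviation of 0.26 against 0.705 for IGFBP6.

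IGFBP7, a secreted protein with low affinity for IGFs that is found in the matrix around vessels, was the most abundant member. Its gene lies on chromosome 4 (57030773 to 57110385, minus strand). The control replicates had 1722, 1276 and 1697 FPKM and the OFD1-depleted replicates 1820, 2322 and 1688 FPKM. The groups overlapped, and control replicate 2 was the lowest and OFD1-depleted replicate 2 the highest of the 6 libraries. The means were 1565 ± 250.5 and 1943 ± 334.3 FPKM (SD, n = 3 each), with a log2 difference of 0.31 (95% interval -0.10 to 0.72, adjusted p = 0.289 by limma with Benjamini-Hochberg adjustment). The difference was 0.18 without OFD1-depleted replicate 2, 0.17 without control replicate 2 and 0.04 without both of these, a choice made after seeing the data. It was 0.17 with TPM scaling, 0.08 with quantile normalization and 0.11 with array weights, and did not pass under any alternative. POLR2B, a subunit of RNA polymerase II, overlaps IGFBP7 on the opposite strand at a mean of 30.1 FPKM, 1.72% of the IGFBP7 mean; the strand setting of the FPKM is not stated.

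IGFBP2 was near the floor. Its values were 0.0667, 0 and 0.0806 FPKM in control and 0.0114, 0.0725 and 0.0342 FPKM in OFD1-depleted cells, and it was not tested. The gene lies on chromosome 2 (216632828 to 216664436, plus strand), and its end faces that of IGFBP5 across 7668 bases. Of this neighbouring pair, IGFBP5 rose and IGFBP2 was barely detected in either group.

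Within each library, the shares of the IGFBP signal do not change when all genes of a library are multiplied by the same factor, as TPM and median-of-ratios scaling do. The summed FPKM of the 6 IGFBP members was 3058, 2586 and 3066 in control and 3001, 3429 and 2888 in OFD1-depleted cells, and overlapped between groups. IGFBP3 took 41.1%, 47.2% and 41.6% of it in control and 35.9%, 28.3% and 38.4% in OFD1-depleted cells. IGFBP7 took 56.3%, 49.3% and 55.3%, then 60.7%, 67.7% and 58.5%. The 2 main members thus stood further apart in OFD1-depleted cells, where the ratio of IGFBP7 to IGFBP3 was 1.69, 2.39 and 1.52, against 1.37, 1.05 and 1.33 in control. The largest ratio was that of OFD1-depleted replicate 2, the library set apart by transcript length. The canonical transcripts have 1427 bases for IGFBP7 and 2613 for IGFBP3, and the part of length in the ratio was not tested. IGFBP5 went from 0.309%, 0.346% and 0.392% of the sum to 1.61%, 1.13% and 1.57%, and so remained a small part of it. These shares are descriptions and were not tested.

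**Figure D3:**
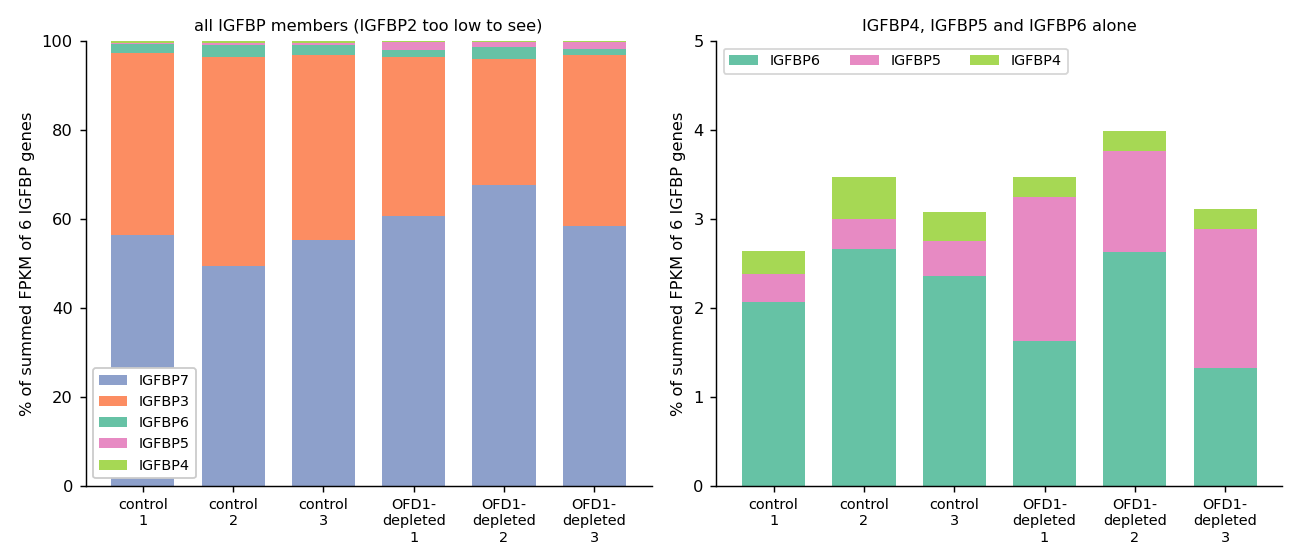
Stacked bars of each IGFBP member's share (%) of the summed FPKM of the 6 IGFBP genes per library, with all members on the left and IGFBP4, IGFBP5 and IGFBP6 alone on the right, on an axis that ends at 5%. The IGFBP7 share is at least 58.5% in OFD1-depleted and at most 56.3% in control libraries, and the IGFBP5 band is wider in every OFD1-depleted library.

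IGF1R, the receptor through which IGFs signal, had close mean levels in both groups. Its gene (chromosome 15, 98648539 to 98964530, plus strand) had 6.18, 5.58 and 7.10 FPKM in control and 7.22, 5.12 and 6.28 FPKM in OFD1-depleted cells. The means were 6.29 ± 0.763 and 6.21 ± 1.05 FPKM (SD, n = 3 each). The log2 difference was -0.03 with a 95% interval of -0.39 to 0.34 (adjusted p = 0.937 by limma with Benjamini-Hochberg adjustment), and its sign turned under median-of-ratios scaling (0.03) and quantile normalization (0.10) and without OFD1-depleted replicate 2 (0.10).

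IGF2R, the cation-independent mannose 6-phosphate receptor, was the more abundant receptor per length. Its gene (chromosome 6, 159969082 to 160113507, plus strand) had 16.1, 12.3 and 19.2 FPKM in control and 15.2, 10.3 and 14.8 FPKM in OFD1-depleted cells. The ranges overlapped, and in both groups replicate 2 was lowest. The log2 difference was -0.24 (standard error 0.19, 95% interval -0.67 to 0.19, adjusted p = 0.45 by limma with Benjamini-Hochberg adjustment). The difference was -0.06 without OFD1-depleted replicate 2 and -0.09 without control replicate 3, and reached -0.41 without control replicate 2 and -0.38 with TPM scaling, without passing under any alternative. The ratio of IGF2R to M6PR, the cation-dependent receptor for the same sorting signal, was 0.506, 0.404 and 0.614 in control and 0.518, 0.352 and 0.577 in OFD1-depleted cells, with overlap.

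INSR, the insulin receptor and closest relative of IGF1R in the list of other pathway genes, was low, at 0.433, 0.407 and 0.444 FPKM in control and 0.331, 0.245 and 0.390 FPKM in OFD1-depleted cells, and it was under the mean needed for a test. IGF1R exceeded it 14.3, 13.7 and 15.99 times in control and 21.8, 20.9 and 16.1 times in OFD1-depleted cells, and the groups stood apart by a narrow margin. Of this receptor pair, IGF1R was thus the more abundant per length in every library.

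The substrates IRS1 and IRS2 carry the signal of IGF1R and of the insulin receptor to PI3K. IRS1 (chromosome 2, 226731312 to 226799820, minus strand) had 3.51, 3.07 and 4.18 FPKM in control and 4.03, 2.71 and 3.33 FPKM in OFD1-depleted cells. IRS2 (chromosome 13, 109752695 to 109786583, minus strand) had 4.503, 4.66 and 5.13 FPKM in control and 5.10, 3.54 and 4.71 FPKM in OFD1-depleted cells. Both overlapped between groups. The log2 difference of IRS1 was -0.10 (95% interval -0.53 to 0.33, adjusted p = 0.772) and that of IRS2 -0.11 (95% interval -0.49 to 0.27, adjusted p = 0.71), both by limma with Benjamini-Hochberg adjustment. Without OFD1-depleted replicate 2 the signs turned, to 0.04 for each of the substrates, and quantile normalization also turned that of IRS1 (0.04). The ratio of IRS1 to IRS2 was 0.78, 0.658 and 0.816 in control and 0.79, 0.766 and 0.707 in OFD1-depleted cells.

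The 4 members with canonical transcripts over 8000 bases, IRS2 (8156), IRS1 (9771), IGF1R (12235) and IGF2R (14061), tended to move together within both groups. Relative to the group mean they stood at -0.31, -0.28, -0.26 and -0.36 in OFD1-depleted replicate 2 on the log2 scale, close to the median of -0.32 of the 921 long genes in that library. In OFD1-depleted replicate 1 all of them were above the mean, by 0.20 to 0.28. In the control group they stood at -0.029, -0.208, -0.162 and -0.34 in replicate 2 and at 0.106, 0.226, 0.179 and 0.296 in replicate 3. The medians of the long genes in these control libraries were -0.044 and 0.005. Between the groups, the median log2 fold change of all tested genes also fell with length, from 0.128 under 1000 bases to -0.176 at 8000 or more. The log2 differences of IRS2, IRS1, IGF1R and IGF2R were -0.11, -0.10, -0.03 and -0.24. Whether length takes part in the differences of these members between groups was not tested beyond leaving OFD1-depleted replicate 2 out.

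**Figure D4:**
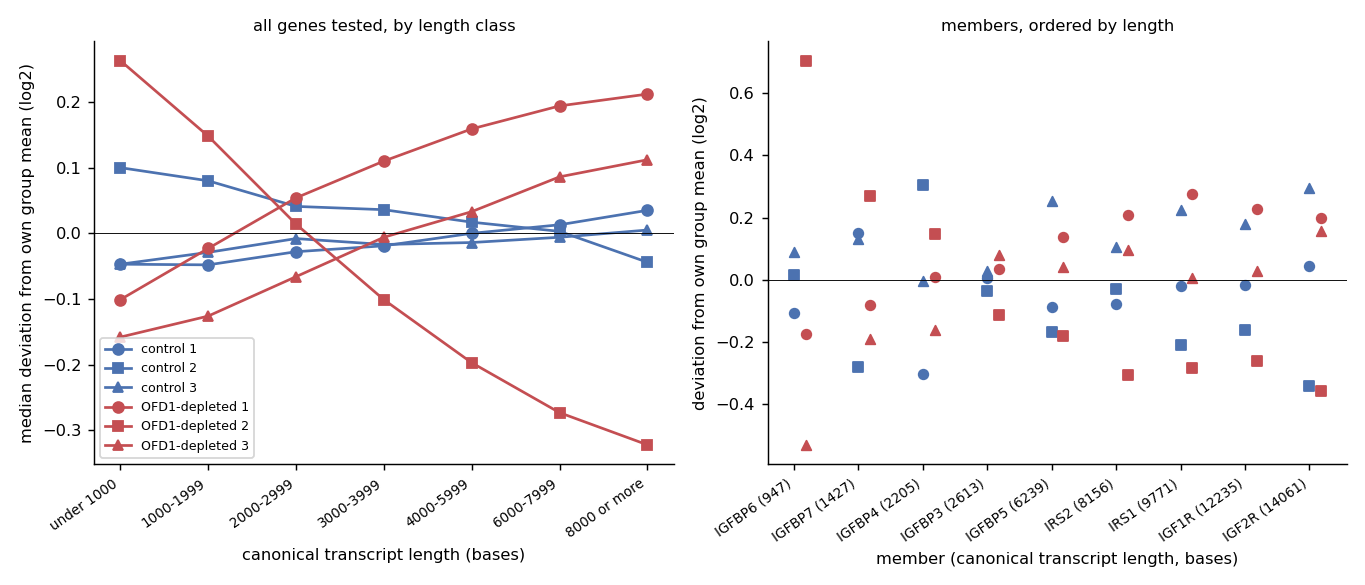
Deviation of each library from its own group's mean (log2), as the median over all tested genes by canonical transcript length on the left and for each tested member, ordered by length, on the right; blue is control, red OFD1-depleted, and symbols mark the replicate. OFD1-depleted replicate 2 falls from 0.26 for genes under 1000 bases to -0.32 for those of 8000 or more, and the 4 longest members are below their group mean in it.

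Genes of the pathway outside the member set were counted in 9 lists of 117 genes, written by hand by role, of which 98 could be tested. Of these 8 rose and 13 fell, or 21.4%, against 17.0% of all genes tested, and their median log2 difference was -0.09. With TPM scaling 5 rose and 17 fell, and the count of 21 dropped to 12 without control replicate 1 and to 13 without control replicate 3. By list, the count ranged from 0 of 10 genes from RAS to ERK to 7 of 11 FOXO factors and genes often cited as FOXO targets.

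Among the other ligands, receptors and binding proteins, 1 of 8 genes could be tested and it fell. This was IGFBP1, a binding protein of the liver that insulin represses, at 4.56, 4.66 and 5.40 FPKM in control and 1.04, 1.17 and 1.03 FPKM in OFD1-depleted cells. Each control library was above each OFD1-depleted library, and the mean fell to 22.1% of control, from 4.87 ± 0.458 to 1.08 ± 0.0783 FPKM (SD, n = 3 each). The log2 fold change was -2.08 (standard error 0.19, 95% interval -2.49 to -1.67, adjusted p = 4.3e-05 by limma with Benjamini-Hochberg adjustment), the 28th largest of 1429 falls. IGFBP1 and IGFBP3 face each other on chromosome 7 with 18584 bases between their ends. IGF1, IGF2, INS and INSRR were listed at 0 in all 6 libraries, and IGFBPL1 and IGFALS stayed under 0.11 FPKM. The ligand genes IGF1 and IGF2 thus had no listed signal, but genes that overlap them were not examined.

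Of the proteases that cleave binding proteins and the inhibitors of those proteases, 6 of 8 were tested, 1 rose and 2 fell. The calls were 50.0% of those tested, against 17.0% of all genes tested. PAPPA, the protease of IGFBP4, had 5.77, 5.27 and 6.35 FPKM in control and 11.3, 6.57 and 11.3 FPKM in OFD1-depleted cells. The lowest OFD1-depleted library, replicate 2, was just above the controls, and the log2 rise was 0.695 (standard error 0.21, adjusted p = 0.0391 by limma with Benjamini-Hochberg adjustment). Without that library the PAPPA rise was 0.95 (adjusted p = 0.00102, limma). The stanniocalcins STC1 and STC2, which inhibit PAPP-A, fell by 1.01 (26.4 ± 1.56 to 13.1 ± 1.77 FPKM, adjusted p = 0.00056) and by 0.52 (422.4 ± 49.8 to 292.8 ± 20.9 FPKM, adjusted p = 0.0274) on the log2 scale (SD, n = 3 each, limma). PAPPA was not called without any of control replicates 1, 2 and 3 or OFD1-depleted replicates 1 and 3 (adjusted p = 0.0803 to 0.134, limma), and STC2 not without control replicates 1 or 3 or OFD1-depleted replicates 1 or 3 (adjusted p = 0.0628 to 0.139, limma). PAPPA was not called with TPM scaling either (0.55, adjusted p = 0.134, limma) nor without the variance trend (adjusted p = 0.0681, limma), and STC2 not with median-of-ratios scaling (-0.47, adjusted p = 0.0518, limma). STC1 passed under each of the 17 alternatives.

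Proteins that share the IGFBP-like domain were tested in 6 of 11 cases, with 1 rise and 3 falls. These calls were 66.7% of the tested genes of the list, against 17.0% of all genes tested. CCN3, a matricellular protein, rose by 0.85 on the log2 scale, from 14.0 ± 0.898 to 25.3 ± 1.82 FPKM (SD, n = 3 each, adjusted p = 0.000951, limma). CRIM1, a membrane protein that binds bone morphogenetic proteins, fell by 1.07, from 149.9 ± 11.7 to 72.8 ± 17.7 FPKM (SD, n = 3 each, adjusted p = 0.00205, limma). ESM1, a secreted proteoglycan, fell by 1.06 and CCN1, a matricellular target of mechanical signals, by 0.44 (adjusted p = 0.0147 and 0.0423, limma). CCN1 lost its call without any of the controls or without OFD1-depleted replicates 1 or 3 (adjusted p = 0.0578 to 0.185, limma), with median-of-ratios scaling (-0.38, adjusted p = 0.0726, limma) and without the variance trend (adjusted p = 0.0515, limma), and ESM1 without control replicate 1 (adjusted p = 0.0529, limma) or 2 (adjusted p = 0.0651, limma).

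Downstream of the receptors, 6.25% of the tested adaptors and phosphatases and 7.41% of the tested PI3K, AKT and mTOR genes passed, against 17.0% of all genes tested. Among adaptors and phosphatases 1 of 16 tested genes did, SOCS1, a feedback inhibitor of cytokine receptors that also acts on IRS proteins, which rose by 1.01 (2.33 ± 0.638 to 4.68 ± 0.499 FPKM, SD, n = 3 each, adjusted p = 0.00928, limma). In the PI3K, AKT and mTOR list 2 of 27 fell, among them the regulatory subunit PIK3R3 by 0.94 (4.74 ± 0.347 to 2.43 ± 0.132 FPKM, SD, n = 3 each, adjusted p = 0.00236, limma). The count in that list turned on the setting. It was 1 without control replicate 1, 2 or 3, 4 without OFD1-depleted replicate 2 or with TPM scaling, and 5 with array weights. Of the 10 genes from RAS to ERK and the 3 IGF2 mRNA binding proteins, 0 passed in limma and 0 had an unadjusted p under 0.05, with log2 differences between -0.18 and 0.33. Without OFD1-depleted replicate 2, 1 gene of each of these lists passed, NRAS and IGF2BP3, which are named here after their values were seen.

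FOXO factors are held out of the nucleus by AKT, and the list of these factors and their often cited targets had 4 rises and 3 falls among 11 tested genes. That was 63.6% of its tested genes, against 17.0% of all genes tested. FOXO3 fell by 0.99 (10.6 ± 0.553 to 5.36 ± 1.09 FPKM, SD, n = 3 each, adjusted p = 0.00206, limma) and the transcription factor KLF6 by 1.00 (22.6 ± 2.23 to 11.3 ± 1.64 FPKM, SD, n = 3 each, adjusted p = 0.000873, limma). SESN1, a stress-induced inhibitor of mTORC1, rose by 1.16 (4.27 ± 0.288 to 9.67 ± 1.01 FPKM, SD, n = 3 each, adjusted p = 0.000309, limma) and the transcriptional coregulator CITED2 by 0.69 (adjusted p = 0.00408, limma). The list thus moved in both directions, with a median of -0.18, and its count of 7 calls dropped to 4 without control replicate 1 or 3. FOXO1 was near 0, with a mean of 0.0925 FPKM over the 6 libraries.

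In the mannose 6-phosphate sorting list, which holds the partners of IGF2R, 1 of 18 genes rose and 2 fell. That was 16.7% of the list, close to the 17.0% of all genes tested. NAGPA, the enzyme that uncovers the mannose 6-phosphate signal, fell by 1.38 (8.94 ± 1.51 to 3.34 ± 0.209 FPKM, SD, n = 3 each, adjusted p = 0.00023, limma). VPS35 of retromer, which returns receptors from endosomes, fell by 0.65 (adjusted p = 0.0134, limma), and the sorting nexin SNX2 rose by 0.53 (adjusted p = 0.0215, limma). VPS35 was not called without control replicate 2 (adjusted p = 0.0568, limma), nor SNX2 without control replicates 1 or 3 or OFD1-depleted replicate 1 (adjusted p = 0.0539 to 0.12, limma) nor with TPM scaling (0.38, adjusted p = 0.0939, limma). Without the filter on low values, which tests 28501 genes, PAPPA, STC2, CCN1, ESM1, SOCS1, VPS35 and SNX2 were not called (adjusted p = 0.0514 to 0.19, limma).

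**Figure D5:**
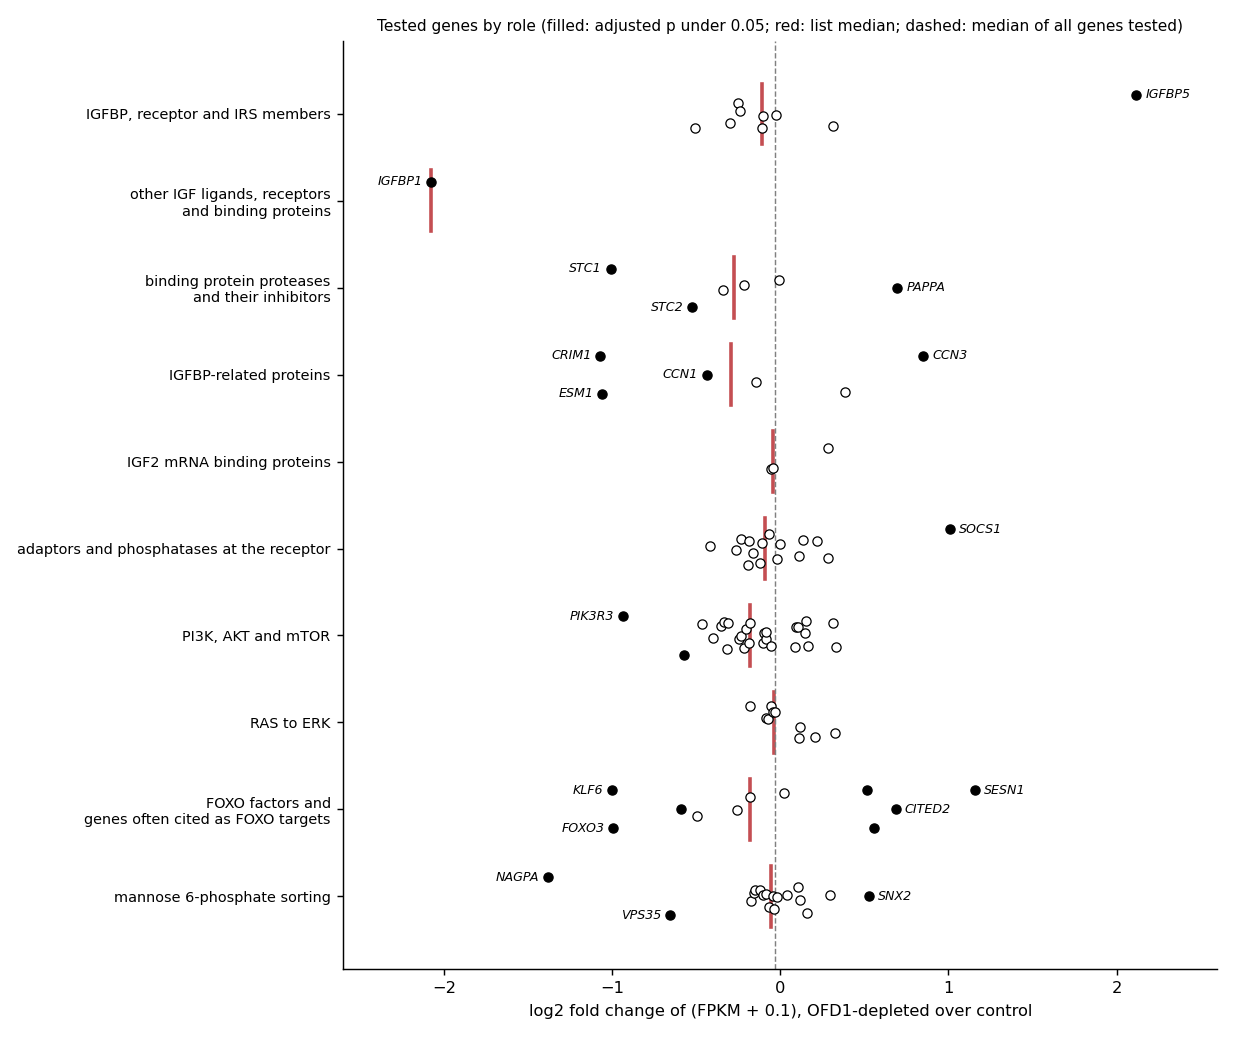
Log2 fold change of FPKM + 0.1 (horizontal axis) of each tested gene, 1 row of points for the members and 1 for each pathway list; filled points have an adjusted p under 0.05, of which up to 4 per row are named, the red line is the row's median and the dashed line that of all genes tested (-0.03). IGFBP5 at 2.12 and IGFBP1 at -2.08 are the outermost points, and most points of the PI3K, AKT and mTOR and RAS to ERK rows are open and within 0.5 of 0.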

How the data were processed

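The deposited table holds FPKM per gene for all 6 libraries. Per the submitters' processing notes and the study's methods, paired-end reads were aligned by the authors to GRCh38 (Ensembl 94) with HISAT2 2.0.5 and summarized as FPKM with StringTie, whose version and strand setting are not given in the sources used here. The labels name both an unstranded and a directional library kit. FPKM was deposited already scaled to depth and transcript length, without counts, so a count model was not used. No libraries were identical.

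Groups and replicate numbers came from the labels. Differences were tested with limma 3.58.1 (R 4.3.3, variance trend on mean expression, two-sided, Benjamini-Hochberg over all 12025 genes) on log2(FPKM + 0.1), after genes with a mean under 1 FPKM were removed, and the procedure was tested on simulated data. This scale understates the change of low genes. Other steps used Python 3.11.15, numpy 2.4.6, pandas 2.3.3, scipy 1.17.1 and matplotlib 3.10.9. Transcript lengths came from GENCODE version 44 canonical transcripts, and 90.0% of gene identifiers matched that annotation.

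Members and lists were chosen with earlier results of these data known. Named genes were the members, OFD1, tested genes of the list of other ligands, receptors and binding proteins, in each other list the called genes of smallest p, up to 4, genes used in a ratio, and genes of at least 1 FPKM that overlap a member; others were named to describe levels only. Alternatives were pseudocounts of 1 and 0.01, no filter, a filter at 5 FPKM, TPM, median-of-ratios and quantile scaling, limma without the trend or with array weights, a replicate block, and each library left out. Some listed genes are not reported here.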

Additional observations from a re-analysis of the deposited data

How the results depend on the processing

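IGFBP5 kept its direction and its call under all 17 alternatives (adjusted p 8.07e-08 to 0.00262, limma), as did IGFBP1 and OFD1 under the 16 that could be applied to them. Genes called (2039) became 1083 without the filter on low values, 3956 with array weights and 3290 without both libraries numbered 2, an alternative chosen after seeing the data, and ran from 1111 to 2818 with single libraries left out, the lowest without control replicate 3 and next (1155) without control replicate 1. Members called (1) became 2 with TPM scaling, quantile normalization, array weights, the replicate block and without both libraries numbered 2, and 1 to 3 with single libraries left out, the highest without OFD1-depleted replicate 2 and 2 without control replicate 1. Pathway genes called (21) became 11 without the filter, and 12 to 28 with single libraries left out. The added calls among members were IGFBP3 with quantile normalization (-0.531), IGFBP4 with TPM (-0.65) and the replicate block (-0.505, adjusted p = 0.0452, limma), and IGFBP6 with array weights (-0.54) and without both libraries numbered 2 (-0.643). With single libraries left out IGFBP4 ranged from -0.656 to -0.352 and IGFBP6 from -0.65 to -0.033. IGF1R reversed with median-of-ratios scaling (0.029), quantile normalization (0.097), array weights (0.051) and without both libraries numbered 2 (0.023), and ranged from -0.14 to 0.104 with single libraries left out. IRS1 reversed with quantile normalization (0.037) and IRS2 with array weights (0.029) and without both libraries numbered 2 (0.027), and with single libraries left out they ranged from -0.238 to 0.04 and from -0.216 to 0.042. The cause was not tested. Of 353 values of the 21 pathway genes called, 48 lost the call and 0 reversed.

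The deviations from the group means of libraries with the same replicate number correlated at 0.0579, 0.0481 and 0.011 across genes. Pairs with different numbers ran from -0.0799 to 0.0503. Control replicates 1 and 2, but not 3, correlated best with the OFD1-depleted library of their own number. Values this small cannot settle whether such libraries were paired. The replicate block took the genes called to 2296 and, among members, changed only the call of IGFBP4. The table holds no counts and depth is known only roughly, so counting error at low values such as those of IGFBP2 is unknown.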
